A study of Mus musculus with 7 samples.

Results

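Interferon-responding T cells were described in the 5 libraries of T cells that had not been stimulated in culture. The cells were chosen by transcripts: a barcode was taken when it held at least 1 UMI (a count of 1 RNA molecule) of 3 or more of the 7 interferon-stimulated genes Ifit1, Ifit3, Usp18, Rtp4, Rsad2, Irf7 and Isg15. Only barcodes with at least 200 detected genes, at most 10% mitochondrial UMIs, no Cd79a UMI and at most 1 Lyz2 UMI were considered. The last 2 limits act on 1 gene of B cells and 1 of myeloid cells, so RNA of such cells remained in some kept barcodes. The rule selected 1145 of 24415 kept unstimulated cells, and the other 23270 cells of the same libraries were the comparison, library by library. The rule reads transcripts, and no interferon protein or receptor signal was measured.

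The series profiled spleen T cells of 8-week-old male C57BL/6 mice with droplet-based 3′ single-cell RNA sequencing in 7 libraries. Every sort was of CD3+ NK1.1- TCRαβ+ TCRγδ- phenotype. In the naive double-negative (DNT) sort, with 2 libraries, cells lacked CD4 and CD8 and did not bind αGal-CD1d or LPC-CD1d tetramers, reagents that mark lipid-specific T cells. Activated DNT (2 libraries) were such cells cultured for 3 days with anti-CD3, anti-CD28 and 20 ng/ml IL-2. The CD4, CD8 and TCRab sorts had 1 library each. TCRab cells were not selected for or against CD4 or CD8. Replicate 2 of both DNT groups used kit v3, which counts more molecules per cell, and the other libraries used kit v2. Whether animals were pooled is not given in the sources used here. Values of the 5 unstimulated libraries are given throughout in the order naive DNT replicate 1, naive DNT replicate 2, CD4, CD8 and TCRab.

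Type I interferons bind the receptor IFNAR1/IFNAR2 on nearly every cell, and the kinases JAK1 and TYK2 then activate transcription factors that join IRF9 in the complex ISGF3. ISGF3 binds interferon-stimulated response elements in promoters and turns on interferon-stimulated genes, whose products block viral replication, sense foreign nucleic acid and enlarge antigen presentation. Interferon gamma uses another receptor and shares many target genes. T cells in a resting spleen carry these receptors, and a low, uneven level of such transcripts among resting lymphocytes is a known feature of mice without overt infection.

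Promoters are shown because the rule rests on genes that ISGF3 is known to switch on through their promoter. The 250 bases before the RefSeq transcription start (build GRCm38.p6, 5′ to 3′ on the gene's strand) are printed for 3 rule genes and for 3 genes outside the rule that were among the clearest differences below. They lie at chr19:34640639-34640888 (Ifit1, plus strand), chr19:34583279-34583528 (Ifit3, plus), chr4:156200819-156201068 (Isg15, minus), chr19:34607707-34607956 (Ifit3b, plus), chr1:173491319-173491568 (Ifi206, minus) and chr11:48871421-48871670 (Irgm1, minus). Capitals mark every match to a core spelling of the interferon-stimulated response element, searched on both strands: GAAA, any 2 bases and GAAA again, or read from the other strand TTTC, any 2 bases and TTTC. The 3 genes outside the rule were picked among called genes that hold a match, and the 3 rule genes printed hold one too. That each printed window has a match is therefore fixed by the choice.
Ifit1: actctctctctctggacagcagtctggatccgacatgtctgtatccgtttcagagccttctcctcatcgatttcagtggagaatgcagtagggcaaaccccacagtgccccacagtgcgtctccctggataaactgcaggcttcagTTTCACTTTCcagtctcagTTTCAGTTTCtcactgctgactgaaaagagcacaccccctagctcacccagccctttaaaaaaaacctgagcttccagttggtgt
Ifit3: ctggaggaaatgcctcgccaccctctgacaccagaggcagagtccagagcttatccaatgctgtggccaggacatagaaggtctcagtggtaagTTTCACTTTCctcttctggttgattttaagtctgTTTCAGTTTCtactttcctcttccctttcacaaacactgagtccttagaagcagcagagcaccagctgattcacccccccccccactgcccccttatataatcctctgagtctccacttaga
Isg15: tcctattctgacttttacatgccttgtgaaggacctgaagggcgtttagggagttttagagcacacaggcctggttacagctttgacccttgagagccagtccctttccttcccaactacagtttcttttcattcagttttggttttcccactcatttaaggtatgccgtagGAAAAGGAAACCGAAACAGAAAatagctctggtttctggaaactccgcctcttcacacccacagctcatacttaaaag
Ifit3b: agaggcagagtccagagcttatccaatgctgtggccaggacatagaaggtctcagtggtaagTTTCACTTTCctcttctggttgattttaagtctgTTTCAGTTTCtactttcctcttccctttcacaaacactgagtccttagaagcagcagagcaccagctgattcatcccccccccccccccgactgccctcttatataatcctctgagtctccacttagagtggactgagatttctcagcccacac
Ifi206: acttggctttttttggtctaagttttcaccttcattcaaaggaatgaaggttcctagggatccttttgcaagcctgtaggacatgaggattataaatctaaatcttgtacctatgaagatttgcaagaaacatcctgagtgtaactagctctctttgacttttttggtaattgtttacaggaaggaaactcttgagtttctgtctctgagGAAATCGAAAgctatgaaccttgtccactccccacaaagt
Irgm1: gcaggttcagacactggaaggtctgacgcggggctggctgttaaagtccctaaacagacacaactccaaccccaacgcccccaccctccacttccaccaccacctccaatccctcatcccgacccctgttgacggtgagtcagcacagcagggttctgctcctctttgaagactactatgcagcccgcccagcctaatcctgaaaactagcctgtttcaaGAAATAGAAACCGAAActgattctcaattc
Ifit1, Ifit3 and Ifit3b each held 2 matches on the opposite strand, Isg15 held 3 overlapping matches on its own strand, Ifi206 1 and Irgm1 2 overlapping ones. Of the 5 rule genes in the RefSeq table used, 4 held a match (Ifit1, Ifit3, Isg15, Rsad2), and the window of Irf7 held none. Ifit3 and its neighbour Ifit3b are near-copies: the same stretch with the same pair of matches stands in both windows, and how the authors' counting divided reads between the copies is not given, so their separate levels are uncertain. Over all 27025 genes of the table, 936 (3.46%) held the motif in this window.

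Cells that met the rule were present in every unstimulated library. They made up 97 of 3972 kept cells (2.44%, Wilson 95% interval 2.01 to 2.97) in naive DNT replicate 1 and 437 of 6525 (6.70%, 6.12 to 7.33) in naive DNT replicate 2. The CD4 library held 207 of 5008 (4.13%, 3.62 to 4.72), the CD8 library 214 of 4644 (4.61%, 4.04 to 5.25) and the TCRab library 190 of 4266 (4.45%, 3.87 to 5.11). Activated DNT held 6 of 1788 (0.336%) and 5 of 1530 (0.327%), below each of the 5 unstimulated libraries. Among barcodes left out for a Cd79a UMI, 3 or more of the 7 genes were found in 0 of 16, 9 of 178 (5.06%, 2.68 to 9.33), 1 of 16, 0 of 10 and 3 of 13 (23.1%, 8.18 to 50.3). These intervals cover counting error only.

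The share moved with depth, since a cell with more UMIs has more chances to meet the rule. The interferon-responding cells had median totals of 4387, 8531, 4347, 5124 and 4473 UMIs, against 4112, 7495.5, 4077, 4881.5 and 3969.5 UMIs in the other cells, and the deepest library had the highest share. Thinned to 1500 UMIs per cell, the share was 0.738% (29 of 3931 cells), 0.962% (62 of 6448), 1.19% (59 of 4974), 1.04% (48 of 4634) and 1.11% (47 of 4231). The Wilson intervals of all 5 thinned shares overlapped, from 0.514 to 1.06% in naive DNT replicate 1 up to 0.921 to 1.53% in CD4. With so few cells, this overlap does not show that the sorts were equal. With 2 or more rule genes at the same depth, naive DNT replicate 1 held 2.19% (1.77 to 2.69). The intervals of CD4 (3.68%, 3.19 to 4.24), CD8 (3.34%) and TCRab (3.88%) lay wholly above that range. Naive DNT replicate 2, at 3.01% (2.62 to 3.45), overlapped each of the other unstimulated libraries, so an order among the sorts was left undecided. When thinned, the activated DNT libraries held 0.112% and 0.0687% of cells with 2 or more rule genes, and 0 cells with 3 or more. For 3 or more, this allows a share of up to 0.168% of 1788 cells and 0.206% of 1455 cells if the limit is set at 3 cells. By the upper Wilson bound it allows 0.214% and 0.263%. With 2 libraries against 2, no exact permutation test between activated and naive DNT could pass 0.05, and none was made.

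**Figure D1:**
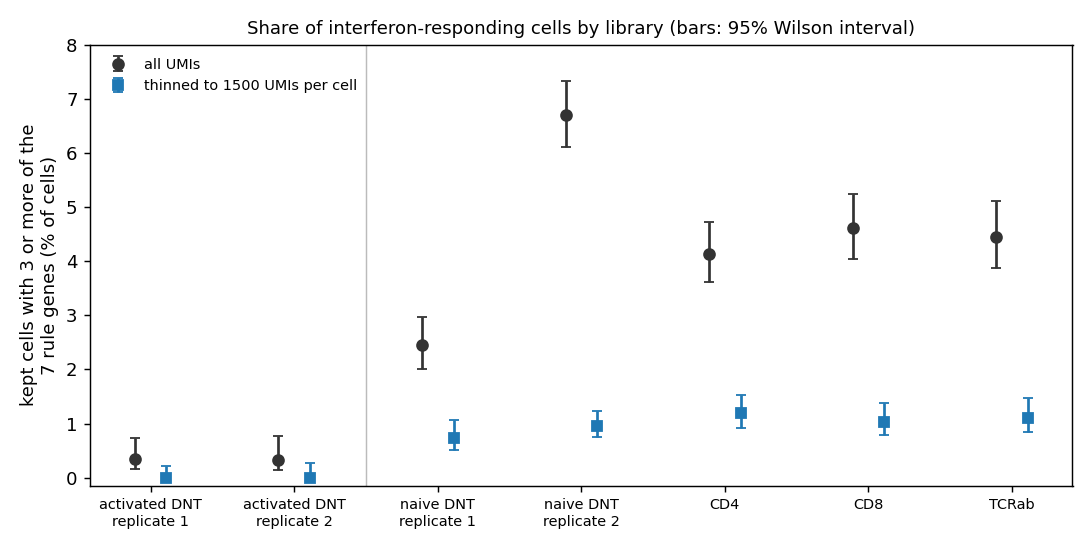
Share of kept cells with 3 or more of the 7 rule genes (percent, y axis) in each library (x axis), with all UMIs (black circles) and after thinning each cell to 1500 UMIs (blue squares); bars are Wilson 95% intervals. The activated DNT libraries lie at 0.336% and 0.327% with all UMIs, and the unstimulated libraries between 2.44% and 6.70%, a spread that closes to 0.738% to 1.19% after thinning.

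The selected cells were T cells by their transcripts. A UMI of Cd3d, Cd3e or Cd3g, which encode chains of the CD3 complex, was found in 100, 99.5, 100, 100 and 100% of them. Summed over 10 T cell genes, their level was between 0.947 and 1.06 times that of the other cells in the 5 libraries, and 0 of these 10 genes passed the test given below in either direction. In the CD4 library 42.5% of the selected cells had a Cd4 UMI without a Cd8a or Cd8b1 UMI and 46.4% had neither, while in the CD8 library every selected cell had a Cd8a or Cd8b1 UMI. The CD4 library also held 242 kept cells with Cd8a or Cd8b1 UMIs and no Cd4 UMI, 14 of them selected.

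RNA of other cell types was concentrated in a few of the selected barcodes. In naive DNT replicate 1 and in CD4, 2 selected cells each carried 546 of 564 and 795 of 819 UMIs of the B cell list. With those cells, the list stood at 1291 and 798 UMIs per 1000000 (CPM) in the selected cells, against 56.8 and 26.5 in the other cells. Without the list's UMIs from barcodes with 10 or more of them, and over all UMIs of the class, it stood at 41.1 and 23.4, against 47.9 and 22.2. Red cell genes were likewise carried by 3 selected cells of naive DNT replicate 2 and 1 each of CD4 and TCRab. Myeloid genes summed to 787.5 CPM in the selected cells of naive DNT replicate 1, against 286 CPM in the other cells, and 2 selected cells held 230 of the 344 UMIs. Without the myeloid UMIs from barcodes with 20 or more of them, and over all UMIs of the class, the sums were 261 and 258 CPM. The 12 dendritic cell genes summed to 18.3, 34.8, 9.75, 4.21 and 2.15 CPM in the selected cells, against 17.8, 36.7, 3.22, 6.94 and 5.37 CPM in the other cells. In CD4 that was 3.03 times as high (counting interval 1.39 to 5.93), on 10 UMIs, and its part in the results was not tested. Siglech, a defining marker of plasmacytoid dendritic cells, had 0 UMIs in the selected cells and 1 UMI in the other cells of the 5 libraries. Cells with over 2 times their library's median UMIs made up 3.09, 8.92, 9.66, 3.27 and 7.89% of the selected cells, against 2.43, 3.38, 2.25, 2.12 and 2.63% of the other cells. No doublet caller was run, and the part of doublets in the results was not tested. At most 0.830% of the barcodes of the smaller of 2 libraries recurred in another library, and 0 selected cells were shared.

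Levels of the 7 rule genes describe the selection and support nothing further. They are given as CPM, the UMIs of a gene per 1000000 UMIs of the class over genes outside the rule. Isg15 encodes a ubiquitin-like protein that is attached to other proteins, and Usp18 the protease that removes it and restrains the interferon receptor. Isg15 stood at 398, 341, 490.3, 403 and 406 CPM in the interferon-responding cells, against 18.4, 21.6, 33.2, 30.0 and 32.4 CPM in the other cells. Usp18 stood at 151, 72.2, 117, 112 and 126 CPM in the interferon-responding cells, against 5.90, 4.46, 11.4, 8.39 and 11.9 CPM in the other cells. The classes did not overlap for either gene, a separation that the choice of cells itself fixes.

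Ifit1 and Ifit3 encode partner proteins that bind viral RNA, and Rsad2 encodes viperin, an enzyme that makes a chain-terminating nucleotide. Ifit1 stood at 206, 151, 310.0, 211 and 282 CPM in the interferon-responding cells, against 4.02, 4.23, 11.5, 9.44 and 10.5 CPM in the other cells. Rsad2 was the rule gene detected in the smallest share of interferon-responding cells, with a UMI in 11.1 to 23.1% of them per library, while Isg15 was detected in 73.2 to 81.2% and Rtp4 in 73.2 to 84.4%. Irf7, the transcription factor that amplifies type I interferon production, stood at 286, 179, 177, 149 and 179.8 CPM in the interferon-responding cells, against 28.6, 33.9, 25.2, 24.3 and 27.4 CPM in the other cells. Each rule gene was also measured with that gene left out of the choice of cells. The rule was set with earlier results of these data known, so the ratios found in this way describe the selection as well. Among cells with 3 or more of the other 6 genes, Isg15 was 12.9 to 19.5 times, Ifit1 16.0 to 37.4 times and Irf7 4.73 to 9.07 times the level in the remaining cells of the same library.

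At the threshold, cells with exactly 3 rule genes carried on average 4.22, 5.14, 4.56, 4.01 and 4.09 rule UMIs. Cells with exactly 2, just outside the rule, carried 2.44, 2.73, 2.45, 2.37 and 2.45. There were 51, 238, 126, 109 and 101 cells just inside and 176, 743, 373, 426 and 321 just outside. Only 4, 32, 4, 5 and 8 cells showed all 7 genes, and most of the selected cells showed 3 or 4 of them.

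Genes that the rule did not use separated by steps with the number of rule genes detected. The antiviral effector list (25 genes in the files, among them Ifi27l2a, Bst2 and Isg20) summed to 869 CPM in cells of naive DNT replicate 1 with 0 rule genes, 1091 with 1, 1534 with 2, 2506 with 3, 2745 with 4 and 2983 with 5 to 7. In the CD4 library the same sums were 1294, 1555, 2100.1, 2863, 3581 and 6731 CPM from 0 to 5 or more rule genes. Every library rose at each step, also between 0 and 1 and between 1 and 2 genes, so the cells just outside the rule lay between the selected cells and those with no rule gene. The T cell list showed no such steps and stayed between 4082 and 5954 CPM over all libraries and steps. Cells with 3 rule genes stood at 2.88, 1.81, 2.21, 1.92 and 2.12 times the antiviral level of cells with 0, and at 3.52, 3.39, 3.76, 2.49 and 3.44 times when all cells were first thinned to 1500 UMIs. These are descriptions over cells of one library, without a test.

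**Figure D2:**
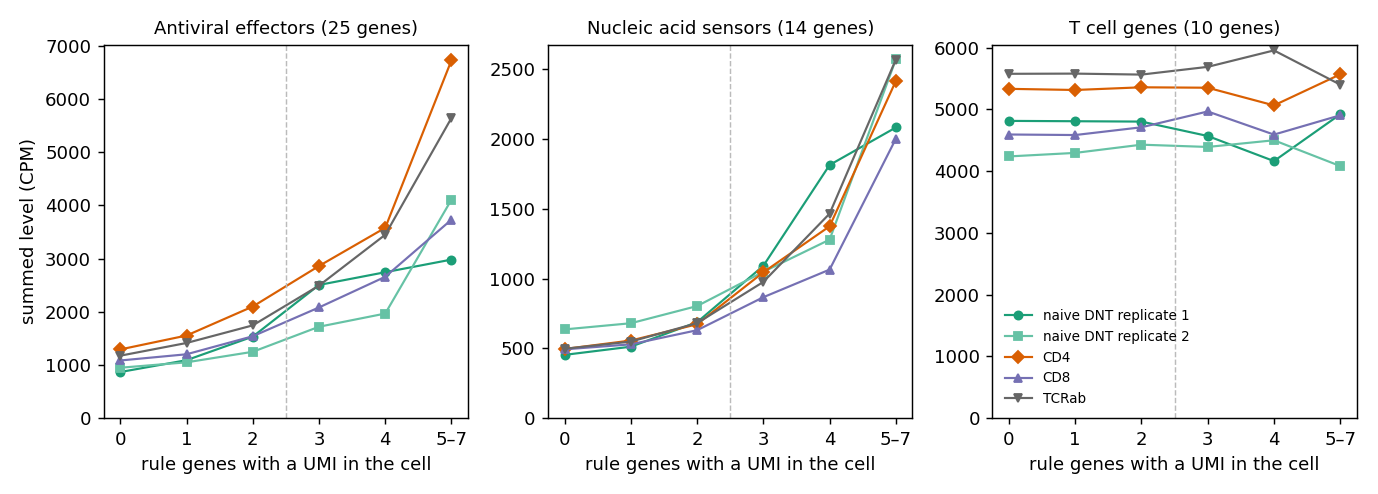
Summed level in CPM (y axis) of the antiviral effectors, the nucleic acid sensors and the T cell genes in cells grouped by how many of the 7 rule genes they showed (x axis), 1 line per unstimulated library; the dashed line marks the threshold of the rule. Antiviral effectors rose at every step, from 1294 CPM to 6731 CPM in the CD4 library, while T cell genes stayed between 4082 and 5954 CPM.

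For a test across genes, UMIs were summed over the interferon-responding cells and over the other cells of each library, which gave 10 sums, and the 2 sums of a library were compared with each other with edgeR's quasi-likelihood test. Of 6116 genes outside the rule, 155 were higher in the interferon-responding cells (2.53%) and 42 were lower (0.687%), 3.22% in either direction, at a Benjamini-Hochberg adjusted p under 0.05, and the median log2 difference over all tested genes was -0.02. Of the higher genes 61 changed by 2-fold or more and of the lower ones 0, which fell by 0.07 to 0.73 on the log2 scale. The level filter was a mean over all 10 sums, so a gene low in the other cells could pass it through the interferon-responding cells and then had to differ. Among the 5996 genes with at least 10 CPM on average in the other cells, 133 were higher, 42 of them by 2-fold or more, and 42 were lower, 0 of them by 2-fold. Of the higher genes 148 were higher in all 5 libraries, and of the lower genes 33 were lower in all 5. Of the higher genes, 81 belonged to the interferon lists and 74 did not. Each library was also left out in turn. In each of these 5 fits, 112 of the 155 higher genes and 3 of the 42 lower genes (Bcl2, Rps27 and Ccr7) were called. When cells were thinned to 1500 UMIs, the interferon-responding cells were chosen again from the thinned counts, and 95 and 11 genes were called. That leaves fewer cells and fewer UMIs to test. The p-values measure the spread between these 5 libraries.

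Antiviral effectors were higher in the interferon-responding cells, with 19 of the 20 tested genes called higher, 0 lower and a median log2 difference of 1.99. Another 6 list genes were not tested (Ifit2, Mx1, Mx2, Oas1g, Oas2 and Ifi44, of which Mx2 was not analysed here), and 1 tested gene, Epsti1, was not called. Since a gene could reach the level filter through the interferon-responding cells, the 11 tested genes with at least 10 CPM on average in the other cells are given as well, and 10 of them were called higher. Ifi27l2a, a strongly interferon-induced gene, stood at 758, 515, 2161, 1028 and 1679.8 CPM in the interferon-responding cells, against 257, 199, 827, 395 and 609 CPM in the other cells. The ratio lay between 2.59 and 2.94 in all 5 libraries, although the level in the other cells alone ranged from 199 to 827 CPM between libraries, so the classes overlapped across libraries. Its log2 difference was 1.41 ± 0.04 (SE, 5 libraries; edgeR quasi-likelihood, adjusted p = 1.87e-24).

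Isg20, an exonuclease that degrades viral RNA, stood at 64.1, 41.6, 69.2, 51.4 and 75.4 CPM in the interferon-responding cells, against 6.75, 8.17, 18.1, 9.05 and 16.2 CPM in the other cells. Here the classes did not overlap, and the log2 difference was 2.32 ± 0.12 (SE, adjusted p = 2.97e-15). Bst2, or tetherin, which holds budding virus particles at the cell surface, stood at 302, 274, 243, 234 and 262 CPM in the interferon-responding cells, against 77.7, 84.5, 83.9, 100.1 and 95.5 CPM in the other cells, again without overlap. Its log2 difference was 1.54 ± 0.10 (SE, adjusted p = 4.62e-05). The largest log2 difference among all tested genes was that of Ifit3b, at 4.82 ± 0.21 (SE, adjusted p = 3.46e-19), from 21.5 to 39.0 CPM in the interferon-responding cells and 0.775 to 1.36 CPM in the other cells. It shares sequence with the rule gene Ifit3, so it is not independent of the rule. Ifit3b also reached the level filter only through the interferon-responding cells and so had to differ.

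The oligoadenylate synthetase genes, whose products make the second messenger that activates RNase L, were called higher as far as they were tested. Oas1a and Oas3 differed by 2.52 and 2.40 on the log2 scale, and Oasl1, a family member without that enzymatic activity in the mouse, by 3.03 (SE 0.21), with ratios from 5.58 to 19.3 per library. Cmpk2, a mitochondrial nucleotide kinase, stood at 27.5, 23.5, 15.6, 15.2 and 18.3 CPM in the interferon-responding cells, against 3.10, 2.49, 2.15, 1.93 and 1.40 CPM in the other cells. The classes did not overlap, and its log2 difference was 3.16. Cmpk2 reached the level filter only through the interferon-responding cells and so had to differ. Eif2ak2, the kinase PKR that stops translation, differed by 2.02. Mx1 was too low to test, with 7, 99, 8, 13 and 4 UMIs in the interferon-responding cells and 16, 117, 1, 16 and 9 in the far more numerous other cells.

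Nucleic acid sensors were called higher in 10 of 10 tested genes of a list of 14, with a median log2 difference of 1.39. Of these, 8 had at least 10 CPM in the other cells, and all 8 were called. The tested sensors under that level reached the filter only through the interferon-responding cells and so had to differ. Zbp1, which binds Z-form nucleic acid and can start necroptosis, stood at 256, 139, 186, 168 and 222 CPM in the interferon-responding cells, against 46.2, 39.1, 59.7, 48.9 and 59.3 CPM in the other cells. The lowest of the interferon-responding values lay above the highest of the others, and the log2 difference was 1.86 ± 0.09 (SE, edgeR adjusted p = 2.3e-08). Ifi206, of the Ifi200 family of DNA-binding proteins, differed by 1.52 ± 0.06 (SE, adjusted p = 1.62e-20), with 162 to 256 CPM in the interferon-responding cells and 60.6 to 74.5 CPM in the other cells. The RNA helicases that sense viral RNA, Ddx58 (RIG-I), Ifih1 (MDA5) and Dhx58 (LGP2), differed by 1.07, 2.18 and 2.30. Ddx58 lost its call when thinned (adjusted p = 0.302), and Ifih1 fell under the level filter without either naive DNT library. The Ifi200 genes are close paralogs in 1 cluster on chromosome 1, and Mndal and Ifi203 overlap on the same strand, so the split of reads between them is uncertain.

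Ubiquitin and ADP-ribosylation genes made up 21 list members, of which 18 were tested, 17 were called higher and 0 lower, with a median of 1.24; 15 had 10 CPM or more in the other cells, 14 of them called. Rnf213, a very large ubiquitin ligase with antimicrobial activity, stood at 52.7, 127, 33.1, 41.3 and 46.3 CPM in the interferon-responding cells, against 16.2, 35.7, 11.8, 14.7 and 10.8 CPM in the other cells. The classes overlapped only through the deep naive DNT replicate 2, where the other cells stood at 35.7 CPM, and the ratio lay between 2.81 and 4.27. Parp9 and Dtx3l encode a complex that modifies ubiquitin and histones and are read from opposite strands of one locus. Parp9 differed by 1.59 ± 0.12 (SE, adjusted p = 2.94e-13). Herc6, a ligase that attaches ISG15 in the mouse, differed by 1.43, and Uba7, the enzyme that activates ISG15 for transfer, by 0.65, a call lost when thinned (adjusted p = 0.959). Phf11b and Phf11c, of a PHD-finger family, differed by 1.47 and 1.90, and Parp11 was the tested member that was not called.

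Interferon-inducible GTPases, which attack the membranes of vacuoles that house intracellular pathogens, were called higher in 11 of 12 tested genes of 15, with a median of 1.24. In the other cells 10 of the 12 reached 10 CPM, and 9 of these were called. Irgm1, a regulator of this family, stood at 66.4, 70.7, 73.1, 72.4 and 101 CPM in the interferon-responding cells, against 16.7, 21.4, 28.1, 29.8 and 33.4 CPM in the other cells. The classes did not overlap, and the log2 difference was 1.55 ± 0.09 (SE, adjusted p = 1.92e-15). Gbp2, a guanylate-binding protein, differed by 1.22 ± 0.09 (SE, adjusted p = 5.04e-13) and Gbp7 by 1.26 ± 0.09 (SE, adjusted p = 6.17e-13). Iigp1 differed by 2.72 ± 0.40 (SE, adjusted p = 0.0159), a call that was lost without the TCRab library (adjusted p = 0.11). In the other cells it stood at 0.304, 0.733, 10.4, 4.70 and 5.37 CPM, so it passed the level filter only through the interferon-responding cells. The Gbp and Tgtp genes are duplicated families, Tgtp2 was called and its near-copy Tgtp1 was not (adjusted p = 0.337), and how reads were divided between such copies is not given. Over the 4 lists of effectors, sensors, ubiquitin genes and GTPases, 57 of 60 tested genes of 76 were called higher. Among those with 10 CPM or more in the other cells it was 41 of 44. All 60, these 44 included, were higher in each of the 5 libraries. The genes under 10 CPM in the other cells had to be higher on average to pass the level filter, so for them this is partly fixed.

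**Figure D3:**
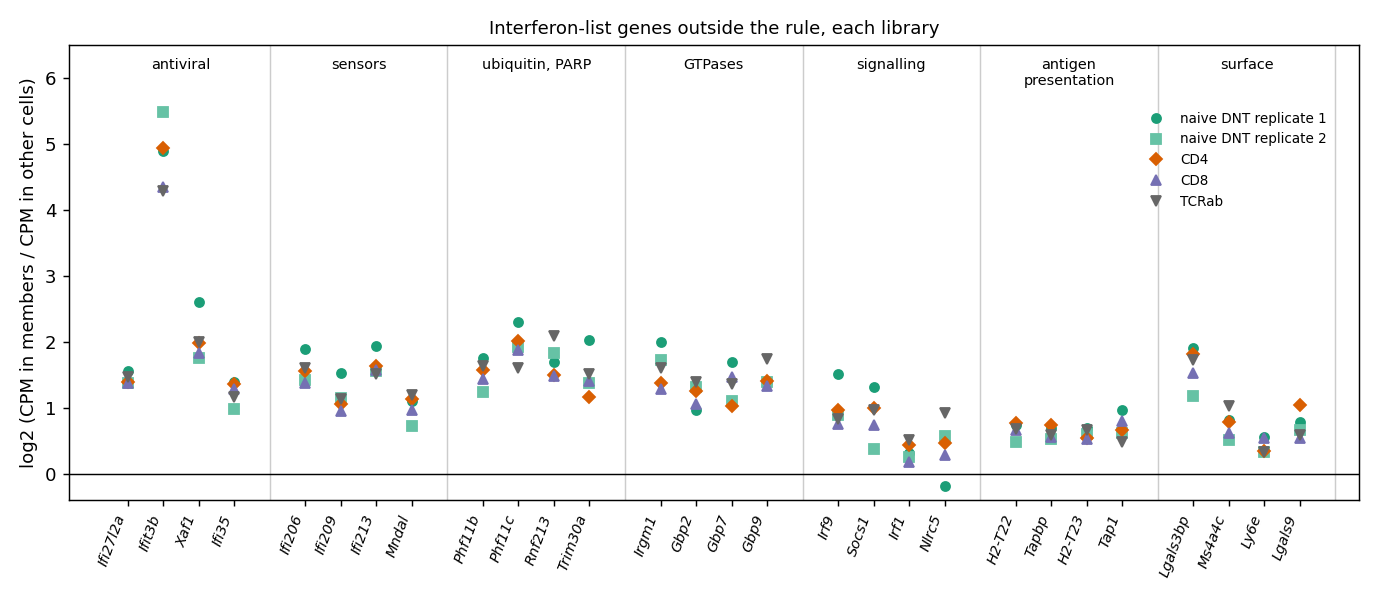
log2 ratio of the level (CPM) in interferon-responding cells to that in the other cells (y axis) for the leading genes of 7 lists (x axis), 1 point per unstimulated library, none of the genes used by the rule. The first 4 groups lie near or above 1 in nearly every library, whereas signalling, antigen presentation and most surface genes lie between 0 and 1, apart from Nlrc5 in naive DNT replicate 1, below 0, and a few points above 1.

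Signalling genes were called higher in 5 of 15 tested genes of 18, and the receptors themselves were not among them. Irf9, Irf1, Socs1 and Nlrc5 were among the called genes, and the list's median was 0.15. Irf9, the DNA-binding part of ISGF3, differed by 0.91 ± 0.09 (SE, adjusted p = 2.13e-09), and Socs1, an inhibitor of JAK kinases, by 0.75 ± 0.10 (SE, adjusted p = 2.12e-06). When thinned, Socs1, Irf1 and Nlrc5 were not called (adjusted p = 0.328, 0.564 and 0.949), and Nlrc5 was also lost without naive DNT replicate 2 or TCRab. Ifnar1 and Ifnar2, the type I receptor chains, had log2 differences of -0.11 and 0.15 (adjusted p = 0.85 and 0.65). Ifngr1, Ifngr2, Jak1, Jak2, Irf2, Irf3, Socs3 and Ptpn6 were not called either, and Tyk2, Stat2 and Irf5 were too low to test.

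Genes of the class I antigen-presentation pathway were higher by smaller steps, with 11 of 16 called higher, 0 lower and a median of 0.32. Tap1, a chain of the transporter that loads peptides, stood at 93.9, 115, 108, 111 and 102 CPM in the interferon-responding cells, against 47.9, 74.5, 68.3, 63.5 and 73.0 CPM in the other cells. The classes did not overlap, and the log2 difference was 0.66 ± 0.07 (SE, adjusted p = 8.05e-10). Psmb8, a subunit of the immunoproteasome, differed by 0.40 ± 0.04 (SE, adjusted p = 7.29e-09) and B2m, the light chain of class I molecules, by 0.20 ± 0.03 (SE, adjusted p = 4.12e-07), a 1.15-fold difference. The classical heavy chains H2-K1 and H2-D1 had log2 differences of 0.07 and 0.08 and were not called (adjusted p = 0.391 and 0.209). Against other cells matched on total UMIs both were called higher (adjusted p = 0.00109 and 0.000411). When cells were thinned to 1500 UMIs, 7 of the 11 were called. B2m then had a log2 difference of 0.13 (adjusted p = 0.652), and Psme1, Psme2 and Tap2 also lost their calls (adjusted p = 0.284, 0.266 and 0.601). Tap2 was also lost without naive DNT replicate 2 or CD8. The nonclassical genes H2-T22 and H2-T23 were called, also when thinned, whereas H2-Q4, H2-Q6 and H2-Q7 were not.

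Of the surface and secreted genes 8 of 11 tested of 15 were called higher, 0 lower, with a median of 0.45. Lgals3bp, a secreted galectin-binding protein, had the largest log2 difference of the list at 1.53 ± 0.10 (SE, adjusted p = 2.09e-14). Ly6a (Sca-1) stood at 66.4, 49.0, 548, 129.7 and 417 CPM in the interferon-responding cells, against 16.9, 19.7, 249.9, 30.9 and 176 CPM in the other cells. It was higher in each library, but its level ranged more between sorts than between classes. The call (log2 difference 1.38 ± 0.17 SE, adjusted p = 0.0355) was lost without either naive DNT library or without TCRab, with adjusted p between 0.13 and 0.16. Cd69, which marks recent activation and holds cells in tissue, was not called, nor were Ly6c1 and Ly6c2. Some alternatives called Ly6c2 higher, among them DESeq2 (adjusted p = 0.0115) and edgeR against other cells matched on UMIs (adjusted p = 8.31e-06).

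Transcripts of type I and III interferons were almost absent. Of 19 such genes, 0 UMIs were found in naive DNT replicate 1, CD4, CD8 and TCRab, which allows a level of up to 0.177, 0.139, 0.125 and 0.165 CPM. Naive DNT replicate 2 held 6 UMIs, all of Ifna2, 5 in interferon-responding cells and 1 in the other cells, and each activated DNT library held 1 UMI of such a gene. Interferon gamma was measurable. Ifng stood at 89.3, 125, 8.77, 2.53 and 3.23 CPM in the interferon-responding cells, against 46.9, 86.8, 2.78, 0.747 and 2.27 CPM in the other cells. It was higher in each library, but on only 9, 3 and 3 UMIs in the interferon-responding cells of CD4, CD8 and TCRab, and its log2 difference was 0.66 ± 0.11 (SE, adjusted p = 0.000101). When thinned to 1500 UMIs it was 0.89 and not called (adjusted p = 0.302).

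Outside all lists, the 15 genes with the lowest adjusted p among the higher ones included other genes that interferon is known to induce. Pml and Sp100, which build nuclear bodies, differed by 1.48 ± 0.12 and 0.54 ± 0.05 (SE). Ddx60, a helicase, differed by 1.79 ± 0.17 (SE), and Ifi214, Samd9l, Trafd1 and Helz2 by 1.42, 1.02, 1.15 and 1.09. Ccnd2, the cyclin D2 gene, stood at 489.9, 451, 628, 521 and 569.6 CPM in the interferon-responding cells, against 286, 327, 419.8, 372 and 421 CPM in the other cells. All values of the interferon-responding cells lay above all values of the other cells, with a log2 difference of 0.52 ± 0.05 (SE, adjusted p = 8.3e-11). Nampt, which makes the precursor of NAD, differed by 1.17 and Jaml, an adhesion molecule, by 0.97. The remaining genes of the 15 were Mitd1, Chmp4b, Ddx24, Ppa1 and Sp110, with log2 differences of 0.81, 0.49, 0.46, 0.77 and 0.44. When thinned, Mitd1, Chmp4b, Ddx24, Helz2 and Nampt were not called, with adjusted p between 0.0589 and 0.602. All 7 tested genes of the proliferation list were without a call, and the list's sum was 1.54 times as high in the interferon-responding cells of CD4 as in the other cells and 0.832 times in those of TCRab.

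Genes of the resting and homing programme were lower by small amounts, with 5 of 16 tested genes called lower (Ccr7, Lef1, Tcf7, Klf3 and Il7r), 1 higher (Ccr9) and a median of -0.13. The call of Ccr9 (log2 difference 0.52) was lost with DESeq2 (adjusted p = 0.606), against other cells matched on UMIs (0.288), when thinned (0.0583) and without naive DNT replicate 2 (log2 difference 0.30, adjusted p = 0.49), CD8 or TCRab. Ccr7, the receptor that guides T cells into the T zone, stood at 52.7, 130.2, 222, 178 and 221 CPM in the interferon-responding cells, against 72.1, 146, 291, 199 and 279 CPM in the other cells. It was lower in each library although the classes overlapped across libraries, and it fell by 0.29 on the log2 scale (SE 0.05, edgeR adjusted p = 0.00042). Bcl2, which blocks apoptosis, stood at 243, 209, 163, 198 and 207 CPM in the interferon-responding cells, against 304, 271, 205, 232 and 226 CPM in the other cells, and fell by 0.30 (SE 0.05, adjusted p = 9.12e-05). It too was lower in every library. Lef1 and Tcf7, transcription factors of naive T cells, each fell by 0.21, and Il7r, the receptor for the survival cytokine IL-7, by 0.23. Klf2 and S1pr1 were not called, but some alternatives called them lower. Among these were DESeq2 for Klf2 (adjusted p = 0.0342) and edgeR against other cells with no rule gene for S1pr1 (adjusted p = 0.0457).

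Outside all lists, the 10 lower genes with the lowest adjusted p fell by 0.09 to 0.38. Gpr183, a receptor for oxysterols that positions lymphocytes, stood at 84.7, 221, 48.7, 31.2 and 47.4 CPM in the interferon-responding cells, against 107, 277, 63.7, 36.1 and 55.5 CPM in the other cells. It was lower in each library and fell by 0.32 (adjusted p = 0.000765), a call lost without naive DNT replicate 2 (adjusted p = 0.13). Actn1, which encodes the actin-binding protein alpha-actinin, fell by 0.24, Atp1b3, a subunit of the sodium pump, by 0.20, and Tpt1, an abundant growth-related protein gene, by 0.10. Rflnb, Pnisr and 1810058I24Rik fell by 0.38, 0.23 and 0.25. The other 3 were the ribosomal protein genes Rps27, Rps29 and Rps24. Of these 10 genes Rps27 alone was called in each fit that left out 1 library. Actn1, Tpt1, Rps29 and Rps24 were lost without CD8, Atp1b3 without CD4 or TCRab, Rflnb without CD4, CD8 or TCRab, 1810058I24Rik without naive DNT replicate 2 or CD8, and Pnisr without either naive DNT library, CD4 or CD8.

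The lower calls of the lists likewise changed when single libraries were left out or cells were thinned. Bcl2 stayed called without each library in turn but stood at -0.04 when cells were thinned to 1500 UMIs. Ccr7 stayed called in the same leave-one-out fits and when thinned, and lost its call with cells of 4 or more rule genes (adjusted p = 0.47). Lef1 lost its call without CD4, CD8 or TCRab, Tcf7 without either naive DNT library or CD4, Klf3 without either naive DNT library, CD4 or TCRab, and Il7r without CD8. When thinned, Lef1, Tcf7, Klf3 and Il7r were not called (adjusted p = 0.293, 0.59, 0.403 and 0.976). Their log2 differences were then -0.38, -0.31, -0.53 and -0.12, and the part of depth in the lost calls was not tested. With the CD8 library left out, 13 genes were lower in all, without CD4 27 and without TCRab 21, against 42 with all 5 libraries. Ribosomal protein genes were 9 of the 42. Of 84 such genes 75 lay below 0, with a median log2 difference of -0.05, against -0.02 over all tested genes.

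Calls in other programmes are set beside the 2.53% higher and 0.687% lower among all tested genes. These lists were short, and none was tested as a set. Of 18 tested memory and effector genes 2 were called higher, Ifng and Id2, a regulator of effector differentiation (log2 difference 0.31, adjusted p = 6.89e-05), and 0 lower, and both calls were lost when thinned (adjusted p = 0.302 and 0.527). The list's sum was 0.928 and 0.903 times as high in the interferon-responding cells of naive DNT as in the other cells, and 1.77, 1.38 and 1.38 times in those of CD4, CD8 and TCRab, with no test of the sums. Of 13 tested genes of recent stimulation, 0 were higher and 1, Fosb, was lower, a call lost with DESeq2 (adjusted p = 0.92), when thinned (0.913) and without naive DNT replicate 2, CD4, CD8 or TCRab. In the apoptosis list Casp8 and Daxx were higher and Bcl2 and Bbc3 lower, of 10 tested, and Bbc3 was lost with DESeq2 (adjusted p = 0.262), when thinned (0.125) and without either naive DNT library or CD8. Among 11 tested NK receptor genes Klra1 was called higher (log2 difference 0.42, adjusted p = 0.0322), a call lost without either naive DNT library or without CD4, with DESeq2 (adjusted p = 0.825) and against matched cells (0.0886), and reversed to -0.84 after thinning. Of the 4 tested CD4 lineage, 4 CD8 lineage, 5 regulatory T cell and 3 NKT and type 2 genes, 0 were called. In the fit without the CD8 library, Cd8a was called higher (log2 difference 0.72, edgeR adjusted p = 0.00165). Also 0 of the tested B cell (5), myeloid (3) and red cell (4) genes were called, with list medians of 2.45, 0.04 and -0.36, and no gene of the dendritic cell, platelet, plasma cell or type 17 lists reached the level filter.

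Whether the difference itself depended on the sort was tested by the interaction of class with naive DNT against the CD4, CD8 and TCRab libraries. Of 6116 genes, 11 were called (0.18%), 5 with a positive interaction (0.0818%) and 6 with a negative one (0.0981%). A positive interaction means a higher signed log2 difference in naive DNT, not a difference of larger size. S100a4, a calcium-binding protein of memory and effector T cells, stood at 174, 263, 286, 60.7 and 182 CPM in the interferon-responding cells, against 168, 305, 124, 19.9 and 85.4 CPM in the other cells. The classes were close in both naive DNT libraries, and the interferon-responding cells were higher in the other 3. The interaction was -1.37 ± 0.11 on the log2 scale (SE, edgeR adjusted p = 2.64e-11). Ccl5, a chemokine of effector cells, stood at 10263, 5648, 212, 1997 and 1092 CPM in the interferon-responding cells, against 11989.7, 6569, 175, 1536 and 813 CPM in the other cells. Its level was lower in the interferon-responding cells of both naive DNT libraries and higher in those of the other 3, with an interaction of -0.57 ± 0.06 (SE, adjusted p = 6.2e-09).

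The opposite sign was found for Ly6c1, a surface gene, which stood at 45.8, 13.2, 225, 1.68 and 170.1 CPM in the interferon-responding cells, against 7.61, 4.42, 205, 0.747 and 144 CPM in the other cells. Its interaction was 1.69 ± 0.23 (SE, adjusted p = 7.38e-06). Ccl4, another chemokine, had 22, 235, 0, 3 and 2 UMIs in the interferon-responding cells and 746, 1499, 93, 308 and 380 UMIs in the other cells, with an interaction of 3.77 ± 0.45 (SE, adjusted p = 5.69e-07). S100a4, Ccl5, Ly6c1 and Ccl4 stayed called without each library in turn. Igfbp4, a gene of naive T cells, had an interaction of 1.51 ± 0.15 (SE, adjusted p = 6.2e-09), which was lost without naive DNT replicate 2 (adjusted p = 0.852). Among the genes of the effector, sensor, ubiquitin and GTPase lists, Iigp1 alone was called here, at 2.06 ± 0.40 (SE, adjusted p = 0.00631), and that rested on 3 and 56 UMIs in the interferon-responding cells of the naive DNT libraries. The sums of the 4 lists were higher in the interferon-responding cells of each library, by factors from 2.24 to 2.80 for effectors, 2.14 to 3.11 for sensors, 2.13 to 2.90 for ubiquitin genes and 2.07 to 3.37 for GTPases. The factor was highest in naive DNT replicate 1 for each list. For sensors it was 3.11 there (counting interval 2.87 to 3.37) and 2.14 (2.08 to 2.20) in naive DNT replicate 2, and for GTPases 3.37 (3.02 to 3.75) and 2.25 (2.17 to 2.34), so the 2 libraries of one sort stood apart by more than counting error. No test between sorts was made on the sums.

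**Figure D4:**
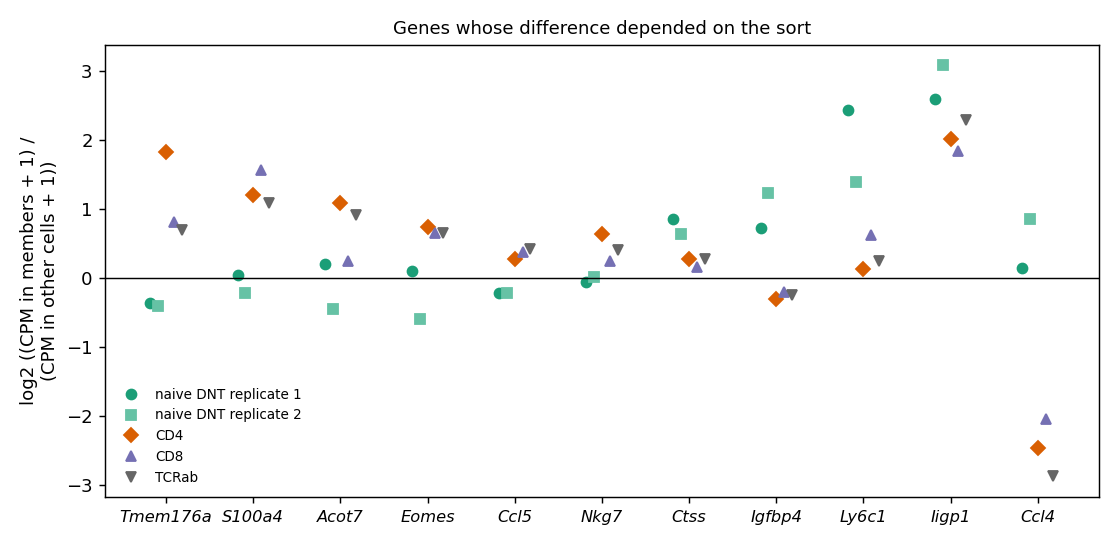
Each point is 1 unstimulated library and gives the log2 ratio of the level in interferon-responding cells to that in the other cells (y axis, CPM with 1 added) for the 11 genes with a called interaction (x axis). S100a4 lies near 0 in both naive DNT libraries and above 1 in CD4, CD8 and TCRab, and Ccl4 lies above 0 in naive DNT and below -2 in the other 3.

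In the TCRab library, which was not sorted on CD4 or CD8, interferon-responding cells were found in each class of cell. They were 101 of 1840 cells with only Cd8a or Cd8b1 UMIs (5.49%, Wilson 4.54 to 6.63), 32 of 705 with only Cd4 UMIs (4.54%, 3.23 to 6.34), 26 of 590 with both (4.41%, 3.02 to 6.38) and 31 of 1131 with neither (2.74%, 1.94 to 3.86). Cells with neither were the shallowest, at a median of 3552 UMIs, against 4315.5 in cells with only Cd8a or Cd8b1. Thinned to 1500 UMIs, with the classes read again from the thinned counts, the shares were 1.18% for Cd8 only, 1.04% for Cd4 only and 1.16% for neither, with 0 of 156 for both. Cells with neither then numbered 2066, against 1131 before, so this class took in cells that had lost their Cd4 or Cd8 UMIs. The thinned shares therefore cannot show whether the classes differed. Cells with a UMI of Ly6c2, a surface gene of memory CD8 T cells that interferon also raises, held 7.15% interferon-responding cells, against 3.43% in cells without. They were also deeper, with a median of 4661 UMIs against 3815. When thinned, the Ly6c2 UMI was read again from the thinned counts, in 716 cells against 1175 before. The shares were then 1.96% (1.17 to 3.26) and 0.939% (0.669 to 1.32), with overlapping intervals, and cells that had lost their Ly6c2 UMI counted among those without. The other libraries did not all show this gap. With all UMIs the shares with and without Ly6c2 were 2.40 and 2.74% in naive DNT replicate 1 and 6.75 and 6.56% in replicate 2. They were 8.94 and 4.01% in CD4 and 5.32 and 3.62% in CD8. When thinned they were, in the same order, 0.760 and 0.664%, 1.08 and 0.808%, 4.69 and 1.14%, and 0.821 and 1.18%.

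The motif of the printed promoters was counted over the gene groups as a description. Among genes called higher, 36 of the 128 with a RefSeq window (28.1%) held it in the 250 bases before the start. Of the genes called lower 3 of 34 (8.82%) held it, and of all tested genes 176 of 4914 (3.58%). By list, 9 of 10 GTPase genes, 7 of 10 sensors, 8 of 22 antiviral effectors and 6 of 17 ubiquitin genes held a match. So did 3 of 15 antigen-presentation genes, 3 of 16 signalling genes and 2 of 12 surface genes. Of the lists outside interferon, 2 of 16 memory and effector genes held one, and 0 of 13 resting, 0 of 7 T cell and 0 of 14 recent stimulation genes. A match in a short window is not a binding site, and a window without these letters says nothing of a factor.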

How the data were processed

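The deposited files are matrices of unnormalized UMI counts, genes by barcodes. Per the submitters' processing notes they were made with Cell Ranger 2.1.0 and 3.0.1 on mm10 (GRCm38), and per the file headers of the kit v3 matrices with software version 3.0.2. How reads shared by near-identical genes were counted is not given in the sources used here.

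The 27514 gene IDs present in both references (27998 genes for kit v2, 31053 for v3) were used. UMIs in kept cells totalled 16973908 and 52153580 in naive DNT, 21618323 in CD4, 24059025 in CD8, 18183768 in TCRab, and 34450930 and 24931531 in activated DNT. Of 28835 barcodes 27733 passed the filters. No doublets were removed, and per-cell depth limits which cells the rule can find.

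Counts of interferon-responding and other cells were summed per library. Genes with a mean of at least 10 CPM over the 10 sums were scaled with TMM and tested with edgeR 4.0.16 (robust glmQLFit and glmQLFTest, R 4.3.3, limma 3.58.1), with library as a block, because both sums of a pair come from one library. The 7 rule genes were left out of library sizes and of the test. The residual degrees of freedom were 4 and the biological coefficient of variation 0.0851. Calls used a Benjamini-Hochberg adjusted p under 0.05. The test was checked on simulated counts. Alternatives included DESeq2 1.42.0, other scalings and filters, no block, each library left out, other cells matched on UMIs, thinning and other thresholds of the rule.

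The text names the 7 rule genes, list genes that passed the test with the lowest adjusted p first, list genes whose role makes their value informative, and outside the lists the 15 higher and 10 lower genes with the lowest adjusted p and 1 sign in all 5 libraries. The cells, the rule and the lists were chosen with earlier results of these data known. Ratios and intervals within a library cover counting error only. Promoters are from RefSeq on GRCm38.p6, and gene coordinates on GRCm38 matched for 160 of 160 named IDs. Other steps used pandas 2.3.3, NumPy 2.4.6 and SciPy 1.17.1 in Python 3.11.15, with figures from matplotlib 3.10.9.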

Additional observations from a re-analysis of the deposited data

Results flagged for a closer look

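The difference between interferon-responding and other cells itself differed between sorts for 11 genes, by the test of the interaction of cell class with naive DNT against the CD4, CD8 and TCRab libraries (edgeR quasi-likelihood, 6116 genes, adjusted p under 0.05; 265 genes had an unadjusted p under 0.05). A negative value means that the signed log2 difference was lower in naive DNT, whatever its size. S100a4 (-1.37), Ccl5 (-0.57), Ccl4 (3.77) and Ly6c1 (1.69) were called in the fits without each library in turn. Igfbp4 (1.51) was lost without naive DNT replicate 2. Acot7 (-1.14), Iigp1 (2.06), Tmem176a (-1.92), Eomes (-1.13), Ctss (0.49) and Nkg7 (-0.43) were each lost without 1 or more of the 5 libraries. After cells with many UMIs of B cell, red cell or myeloid genes were left out, an alternative chosen after seeing the data, Tmem176a (adjusted p = 0.635) and Ctss (adjusted p = 0.057) were not called. Eomes is a transcription factor of memory and effector T cells, and Nkg7 a protein of cytotoxic granules. In the CD4, CD8 and TCRab sorts 1 library stands for each sort, so sort and library cannot be told apart there. Groups had at most 2 libraries, so single outlying libraries were not tested for.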

How the results depend on the processing

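The count of genes higher in interferon-responding cells (155) lay within 1.5 times under each alternative but one: without the replicate block, that is with the pairing of the 2 sums of each library ignored, 50 were higher and 0 lower. Without each library in turn, 140 to 146 were higher and 13 to 37 lower, and 6 to 13 genes had a called interaction, against 11 with all 5 libraries (6 without CD4). The count of lower genes (42) was 14 with DESeq2, 102 without a filter, 91 against other cells matched on UMIs, 76 against other cells with no rule gene, 71 when thinned, 128 with 2 or more rule genes and 11 with 4 or more. Of the 155 higher and 42 lower genes, 146 and 27 were called in the matched comparison, 95 and 11 when thinned, 137 and 6 with 4 or more rule genes, and 128 and 22 without naive DNT replicate 2, which leaves kit v2 alone. Thinning reversed Klra1 (-0.84) among the named genes. Leaving out cells heavy in RNA of other types, chosen after seeing the data, gave 173 higher and 39 lower genes and 14 interactions. Of the 60 tested genes of the effector, sensor, ubiquitin and GTPase lists, between 42 (no block) and 59 were called higher over all alternatives. The share of cells moved with the threshold of the rule, to 6.87, 18.1, 11.6, 13.8 and 12.0% with 2 or more genes and 1.16, 3.05, 1.62, 2.26 and 2.09% with 4 or more, and with thinning, to 0.738, 0.962, 1.19, 1.04 and 1.11%. The antiviral level of cells with 3 rule genes over cells with 0 moved to 3.52, 3.39, 3.76, 2.49 and 3.44 times with thinning. The cause of these changes was not tested.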

Other observations

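The kit v3 reference also annotates T cell receptor constant genes that the kit v2 files lack a shared ID for, so the following values come from naive DNT replicate 2 alone, have no replicate and were chosen after their values were seen. Trdc, the constant gene of the delta chain, stood at 68.1 CPM in the interferon-responding cells, against 34.7 CPM in the other cells, a ratio of 1.96 (95% interval for counting error 1.72 to 2.23), and a UMI of it was found in 14.4% of the interferon-responding cells, against 7.61% of the other cells. Tcrg-C4, a gamma chain constant gene, stood at 60.8 CPM in the interferon-responding cells, against 38.8 CPM in the other cells (ratio 1.56, 1.37 to 1.79), and Tcrg-C2 at 90.7, against 71.3 CPM (1.27, 1.14 to 1.42). Tcrg-C1 had a ratio of 1.06 (0.922 to 1.22). The alpha and beta chain constant genes stood near equal, with ratios of 0.965 for Trac, 1.02 for Trbc2 and 0.939 for Trbc1. The interferon-responding cells of this library were the deeper ones (median 8531 UMIs, against 7495.5 in the other cells), and the part of depth in the detected shares was not tested.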
